A study of Mus musculus with 5 samples.

Results

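The regions described here are 286 Hand1 peaks that lie near protein-coding genes and away from Foxf1 peaks. Chromatin immunoprecipitation followed by sequencing (ChIP-seq) had been used to map HA-tagged Hand1 and HA-tagged Foxf1 in E14 cells, a mouse embryonic stem cell line, during directed cardiac differentiation. A peak was a member when its summit, the position of highest signal, lay on chromosomes 1 to 19 or X within 10 kb of either end of a protein-coding gene. Members also lay more than 500 bp from any tRNA gene, and their interval shared no base with a Foxf1 peak. The members were 25.2% of the 1134 Hand1 peaks (95% exact binomial interval 22.7% to 27.9%), in 220 intervals, of which 42 carried several summits. The members were chosen by the measured peak calls of both lists, so their enrichment is given as a description and was not tested.

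The Hand1-HA cells carried a knock-in of the tag at the Hand1 gene. They formed embryoid bodies over 48 h and were then re-aggregated for 40 h with 5 ng/ml VEGF, 10 ng/ml Activin A and 0.3 ng/ml BMP4 to the stage labelled MES. The Foxf1-HA cells overexpressed the tagged factor from an inducible construct and were taken after a further 32 h as a monolayer, at the stage labelled CP. Factor, stage and mode of expression therefore differed together, and their parts in a difference between the lists cannot be told apart. An input library (chromatin without precipitation) is listed for each stage. Each factor had a single peak list, so replicate error could not be estimated, and the p-values below compare lists of peaks, not cultures. The lists hold no expression values, so the labelled cell type could not be checked against marker genes.

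Hand1 is a basic helix-loop-helix (bHLH) transcription factor of extraembryonic mesoderm and of the developing heart. Proteins of this family bind as dimers to the E-box, a short palindromic DNA element with the letters CANNTG. The members fell into a histone gene component (94 members) and a larger, mixed component (192 members) that included regulators of early mesoderm. Replication-dependent histone genes are short, intronless genes that lie in clusters, are expressed mainly in S phase, and make mRNAs that end in a stem-loop in place of a poly(A) tail.

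The promoters of 3 histone genes with members of high fold are shown because their windows, like most histone windows overlapped by a member, hold the elements CCAAT or TATAAA. Each window runs from 250 bases before to 50 bases after an annotated start of the gene, on the gene's own strand, from RefSeq on GRCm38.p6. Capitals mark CCAAT and TATAAA on either strand. H1f3 is at chr13:23554782-23555081 on the plus strand, H3c2 at chr13:23752095-23752394 on the plus strand, and H1f4 at chr13:23622509-23622808 on the minus strand.
H1f3: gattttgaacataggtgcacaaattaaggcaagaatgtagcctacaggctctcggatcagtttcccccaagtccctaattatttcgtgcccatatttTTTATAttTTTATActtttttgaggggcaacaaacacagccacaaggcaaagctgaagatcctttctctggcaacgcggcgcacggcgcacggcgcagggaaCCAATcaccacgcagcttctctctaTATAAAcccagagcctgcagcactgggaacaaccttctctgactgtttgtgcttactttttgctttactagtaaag
H3c2: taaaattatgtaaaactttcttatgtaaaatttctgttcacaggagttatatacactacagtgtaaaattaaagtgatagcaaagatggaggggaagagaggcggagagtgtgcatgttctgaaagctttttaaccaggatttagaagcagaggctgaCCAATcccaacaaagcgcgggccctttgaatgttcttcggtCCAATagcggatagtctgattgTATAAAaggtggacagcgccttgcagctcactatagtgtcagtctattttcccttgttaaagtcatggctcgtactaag
H1f4: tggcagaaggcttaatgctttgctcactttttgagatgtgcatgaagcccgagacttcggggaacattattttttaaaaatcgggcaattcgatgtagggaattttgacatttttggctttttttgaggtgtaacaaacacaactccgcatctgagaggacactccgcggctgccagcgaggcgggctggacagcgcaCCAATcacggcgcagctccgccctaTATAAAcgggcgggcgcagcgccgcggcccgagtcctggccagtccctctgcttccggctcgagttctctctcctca
The member intervals reached into all 3 windows, but the nearest gene-assigned summits lay past them, at 474 bp, 175 bp and 581 bp from the gene start. The H1f4 interval ended at 23622545 and held neither marked element. The H3c2 interval began at 23752269 and left out the first marked CCAAT.

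A further 3 promoters are shown because a summit fell inside the window itself. Capitals here mark the E-box, CANNTG, which reads the same on both strands. Cibar2 is at chr8:120177420-120177719 on the minus strand, Lin54 at chr5:100500590-100500889 on the minus strand, and Rcor2 at chr19:7267144-7267443 on the plus strand.
Cibar2: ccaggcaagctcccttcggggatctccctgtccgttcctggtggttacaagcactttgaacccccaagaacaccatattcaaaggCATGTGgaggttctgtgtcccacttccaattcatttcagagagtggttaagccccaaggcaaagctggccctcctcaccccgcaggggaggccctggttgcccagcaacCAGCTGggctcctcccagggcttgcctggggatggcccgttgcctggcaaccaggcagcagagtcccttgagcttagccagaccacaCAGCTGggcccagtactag
Lin54: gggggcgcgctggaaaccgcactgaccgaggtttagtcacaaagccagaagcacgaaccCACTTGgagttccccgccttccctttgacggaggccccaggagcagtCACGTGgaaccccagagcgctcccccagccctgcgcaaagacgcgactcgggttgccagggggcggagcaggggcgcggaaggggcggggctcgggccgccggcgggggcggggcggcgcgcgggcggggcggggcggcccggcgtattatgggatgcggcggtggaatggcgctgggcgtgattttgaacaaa
Rcor2: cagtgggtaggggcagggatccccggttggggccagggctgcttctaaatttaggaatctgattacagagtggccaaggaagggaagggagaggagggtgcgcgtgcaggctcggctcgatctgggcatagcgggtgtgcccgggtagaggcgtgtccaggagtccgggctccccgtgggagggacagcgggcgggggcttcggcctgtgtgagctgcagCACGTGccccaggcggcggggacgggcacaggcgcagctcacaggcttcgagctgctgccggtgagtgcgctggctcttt
Cibar2 had the highest fold of the 12 promoters with a summit inside, 17.1, with 3 E-boxes in the window. The first of these 3 lay outside the member interval. Lin54, a DNA-binding subunit of the MuvB complex of cell cycle genes, held 2 E-boxes, and Rcor2, a subunit of CoREST corepressor complexes, held 1.

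The deposited fold enrichment of the members, the authors' ratio of the summit signal over background, had a median of 6.96 and ran from 2.47 to 33.0. The number of fragments at the summit, solved from the fold and the deposited p-value, had a median of 20 and ran from 13 to 280. Hand1 peaks near the same kind of gene end that did overlap a Foxf1 peak numbered 69 and had a median fold of 7.40. The 377 Hand1 peaks without Foxf1 overlap that lay farther from such ends had a median fold of 6.91, and the 280 peaks at tRNA genes had 15.7. The control level at the summit was high, at least 5 times the lowest of the list, for 8 members (2.80%) and for 18 of the 69 Foxf1-overlapping peaks (26.1%). The 3 members of lowest fold, near Tcstv3 (2.47), Wls (2.57) and Cldn34d (2.62), had control levels of 63.7, 108 and 64.5 fragments, against a median of 1.74 over the members.

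Histone genes formed the largest of the gene groups examined. Replication-dependent histone genes were the nearest protein-coding gene of 94 members, 32.9% of the 286 (95% exact interval 27.5% to 38.6%), in 45 intervals. That 95% interval takes summits as independent, which summits of the same peak interval are not. With 1 peak per interval, 44 of 218 members were at these genes. The list used here was built on symbol patterns, and a few of its genes are not strictly replication-dependent. Of its 65 genes, 53 (81.5%) had a member interval on the gene, against 0.661% of all 21627 protein-coding genes. Counting any Hand1 peak, 57 of the 65 (87.7%) had an interval on the gene. A Foxf1 interval lay on 3 of the 65 (4.62%), where 13.5% of all protein-coding genes had one. Those 3 genes were H2ac7, H2ac13 and H2ac22, with Foxf1 folds of 5.87, 5.76 and 6.13. A count of intervals on the gene depends on gene length, and histone genes are short. By Foxf1 summits within 10 kb of a gene end the order was the other way. The count was 25 of the 65 (38.5%), against 20.2% of all protein-coding genes.

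All 5 classes of histone were represented. H1 linker histones bind the DNA between nucleosomes, and all 5 H1 genes had a member interval on the gene. H2A, H2B, H3 and H4 form the nucleosome core. The count was 13 of 19 for H2A, 12 of 17 for H2B, 11 of 12 for H3 and 12 of 12 for H4. The median fold was 14.5 for the 10 members at H1 genes, 7.82 for the 18 at H2A genes, 8.66 for the 20 at H2B genes, 9.13 for the 21 at H3 genes and 7.74 for the 25 at H4 genes. The H1 members thus had the highest median, and the ranges of all classes overlapped.

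H1f3 carried the strongest histone summits, with folds of 28.0, 27.7 and 18.2 from 62, 62 and 40 fragments within a single interval, chr13:23554826-23557138. At H1f4 the folds were 17.5 and 9.12, at H1f2 16.8 and 12.3, at H1f5 11.8 and 7.19, and at H1f1 9.36. H3c2 reached 20.7 with 46 fragments and H3c14 reached 19.2 with 59 fragments. H2ac10 (16.6) and H2ac19 (16.2) followed, and their intervals, of 3172 bp and 3263 bp, were among the widest of all. H4c18 and H4c9, both H4 genes with 3 members each, peaked at 14.1 and 13.8. H3c8, H4c14 and H2bc6 also had 3 members each, with top folds of 6.16, 8.06 and 7.92. Over the histone members the fold had a median of 8.66, from 4.50 to 28.0, against 6.56 over the other 192 members.

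**Figure D1:**
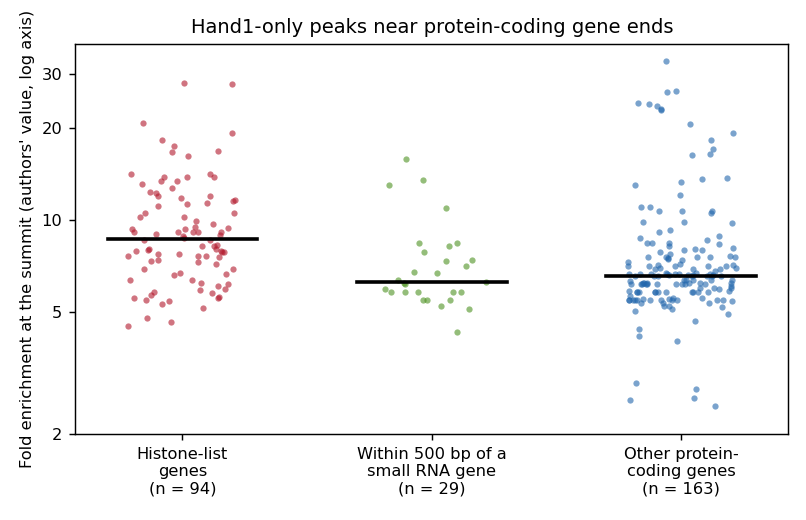
Deposited fold enrichment at the summit (log axis) for members at histone-list genes, for members within 500 bp of a small RNA gene and for the remaining members; each point is 1 summit and each line a median. The histone members have the highest median (8.66), while the highest single fold (33.0) belongs to the remaining members.

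The histone members were also wider and closer to their genes. Their intervals had a median width of 1658 bp per member, against 587.5 bp for the other members, and 30 of the 45 histone intervals held several summits. A single interval took in summits of more than 1 histone gene in 8 cases, and 29 of the 65 genes were covered from end to end by a member interval. The summit lay within 1 kb of a gene end for 90 of the 94 histone members. None of the 94 had a high control level, and the highest value among them was 6.11 fragments. Of the 61 members with a fold of 10 or more, 32 were histone members. Histone genes are near-identical copies of each other, and how reads with several possible positions were treated is not given in the sources used here, so the split of signal between copies is uncertain.

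The histone members followed the gene clusters. On chromosome 13, 79 members fell in 3 blocks. The first, between 21715942 and 21833108, held 25 members at 14 genes, the second, between 22035408 and 22043517, held 9 at 5 genes, and the third, between 23531326 and 23764183, held 45 at 25 genes. On chromosome 3, 15 members lay within 0.0537 Mb. Chromosome 13 thereby held 84 members in all, of which 5 were at genes outside the list. These 5 included the histone gene H4bc24, with a summit at 21834055, just past the first block. The listed histone genes without any Hand1 interval on the gene included H2bc1 and H2ac1 on chromosome 13 and H2bu2 and H2aw on chromosome 11, and none of these 4 had a member within 10 kb.

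Along the gene, the histone summits lay past the start. For the 86 histone members whose gene has a known strand, 1 summit lay before the annotated start, 54 lay inside the gene and 31 lay past its end. The summit before the start belonged to H3c14, at 298 bp. No summit fell in the first 100 bp of a histone gene or in a histone promoter window, although member intervals reached into 43 of the 61 histone windows available. The median position was 438 bp from the start, where the median length of the 65 genes is 492 bp. The summits past the end lay a median of 283 bp beyond it.

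**Figure D2:**
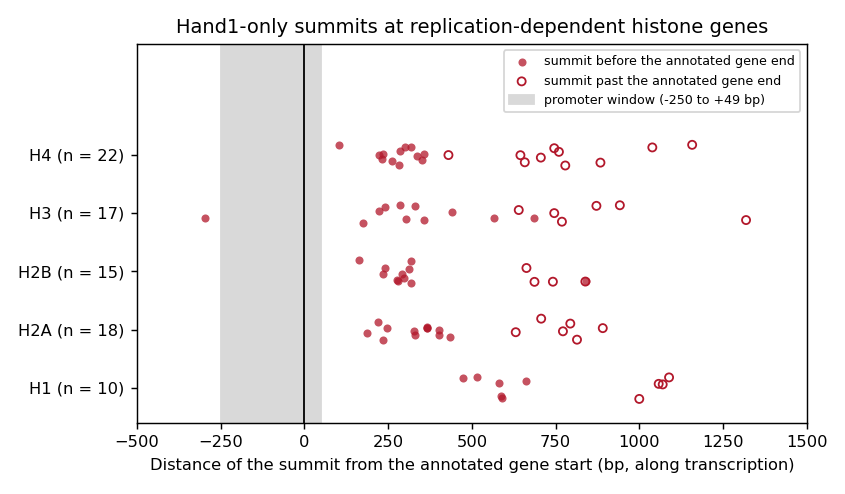
Distance of each histone summit from the annotated start of its gene in bp along the direction of transcription, by histone class, with the promoter window in grey; filled points lie before the annotated gene end and open points past it. Of the 86 summits with a known strand 82 are shown and 4 lie beyond the axis; 1 point lies left of the start and none lies in the grey window.

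The other members were spread differently. Of the 146 with a known strand, 36 (24.7%) lay before the gene start, 59 (40.4%) inside the gene and 51 (34.9%) past its end. Hand1 peaks that overlapped Foxf1 had 21.4% before the start, 41.1% inside and 37.5% past the end (n = 56). Among 2653 Foxf1 peaks without a Hand1 peak, 32.1% lay before the start, 48.4% inside and 19.5% past the end. These shares were looked at after the positions were seen and were not tested.

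**Figure D3:**
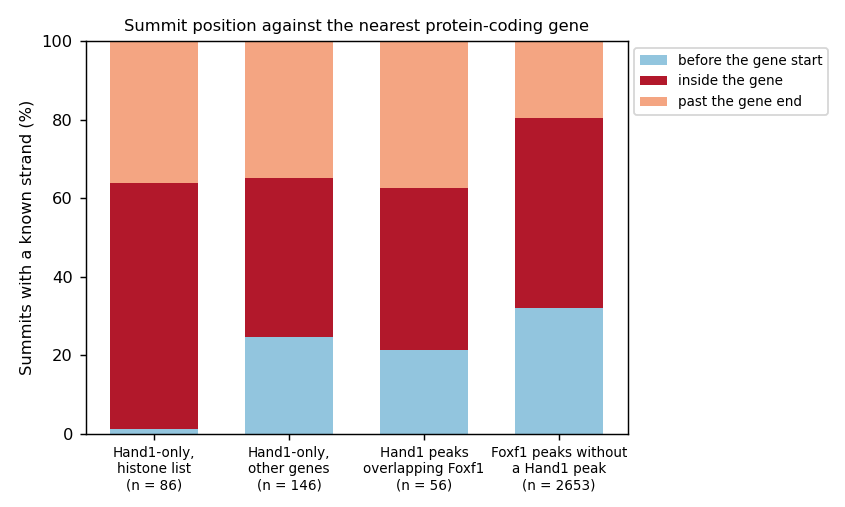
Share of summits (%) before the start, inside or past the end of the nearest protein-coding gene, for members at histone-list genes, other members, Hand1 peaks overlapping Foxf1 and Foxf1 peaks without a Hand1 peak. The histone members have the smallest share before the start, 1.16%, and the Foxf1 peaks have the largest, 32.1%.

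Distances to gene ends were then compared with those of other peaks within 10 kb of such ends. A summit lay within 1 kb of an end for 143 of the 286 members (50.0%, 95% exact interval 44.1% to 55.9%). This held for 23 of the 69 Foxf1-overlapping Hand1 peaks (33.3%, interval 22.4% to 45.7%), so the odds were 2.0 times as high for members (two-sided Fisher's exact test, p = 0.0153, 0.0306 after Benjamini-Hochberg adjustment over 4 tests). It held for 1418 of the 3374 Foxf1 peaks without a Hand1 peak (42.0%, interval 40.4% to 43.7%), with odds 1.38 times as high for members (p = 0.0106 by Fisher's exact test, adjusted 0.0306). All groups were held to the same 10 kb limit, and the shares depend on it: with 50 kb the odds ratio against the Foxf1 peaks was 0.999. The lists have different q-value limits. With a −log10 q-value of 10 or more required in each list, the odds ratios were 4.19 against the Foxf1-overlapping peaks (Fisher's exact test, adjusted p = 0.000231) and 2.17 against the Foxf1 peaks (adjusted p = 2.64e-05). Summits of the same interval are not independent, and with 1 peak per interval neither difference passed Fisher's exact test (adjusted p = 0.216 and 1.0). Without genes of the histone list, 27.6% of the remaining 192 members lay within 1 kb. This was below the 42.0% of the Foxf1 peaks (odds ratio 0.526, Fisher's exact test, adjusted p = 0.000243). The share was 22.03% among the Foxf1-overlapping peaks without genes of that list, and that difference did not pass (odds ratio 1.35, Fisher's exact test, adjusted p = 0.666). Histone genes outside the list, such as H4bc24 and H2ax, stayed among the 192.

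The summit lay inside a protein-coding gene for 142 members (49.7%, interval 43.7% to 55.6%). The share was 40.6% among the Foxf1-overlapping Hand1 peaks (interval 28.9% to 53.1%, odds ratio 1.44) and 53.9% among the Foxf1 peaks (interval 52.2% to 55.6%, odds ratio 0.843). Neither comparison passed Fisher's exact test (adjusted p = 0.183 for both). Without genes of the histone list 43.75% of the members lay inside a gene, below the Foxf1 peaks (odds ratio 0.664, Fisher's exact test, adjusted p = 0.0146).

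Outside the histone list, 5 of 10 further histone genes, chosen after their values were seen, were the nearest gene of a member. Over all 21627 protein-coding genes, 219 were the nearest gene of a member. H4bc24, in the large cluster on chromosome 13, had a fold of 16.3, and H4f16 had 8.10 and 4.66. H2ax, whose product is phosphorylated at DNA breaks, had 6.56 and H1f0, a linker histone of non-dividing cells, had 5.47. A member lay 1.745 kb from H3f3b, a replication-independent H3 gene, with a fold of 6.603 and no Hand1 interval on the gene. H2az1, H2az2, H3f3a, H1f10 and H1f6 were not the nearest gene of any member.

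Regulators of gastrulation and early mesoderm were among the genes of the other members. Across the genome 294 protein-coding genes, 1.36% of 21627, had a member within 10 kb of an end. Among 60 mesoderm and cardiac transcription factors the count was 6 (10.0%), and over all 13 lists of named symbols together it was 18 of 538 (3.35%). They included Eomes, Foxh1, Mesp1, Tbx2 and Tbx3. The lists were drawn up with earlier results of these data known, so these counts are a description.

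Mesp1, a bHLH factor of the earliest cardiac progenitors, had the strongest members of this group. Its 2 summits, in chr7:79797137-79798224, had folds of 19.2 and 9.87 from 51 and 27 fragments, and lay 3.79 kb and 4.13 kb before the gene start. Eomes, a T-box factor of the primitive streak, had 4 summits in 1 interval of 3032 bp, between 0.626 kb and 1.78 kb past the gene end, with folds from 5.12 to 7.65. Mesp1 and Eomes also had a Foxf1 summit 7.96 kb and 1.98 kb from the nearest member summit, without an overlap of intervals.

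Foxh1, a forkhead partner of SMAD proteins in Nodal signalling, had a member 0.083 kb outside its end with a fold of 6.56. That summit lay inside another protein-coding gene, and Cyhr1, Kifc2 and Ppp1r16a also had an end within 10 kb. The T-box repressors Tbx3 and Tbx2 had a member each, 2.39 kb and 5.04 kb outside the gene, with folds of 6.62 and 6.06. The Tbx2 member lay nearer to Bcas3, which was its assigned gene. The summits at Eomes, Foxh1, Tbx2 and Tbx3 held between 15 and 22 fragments, around the median of all members, 20.

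Genes of the Nodal pathway included the highest fold of all. The summit in chr9:110948840-110949639 had a fold of 33.0 from 80 fragments, and lay 2.21 kb before the start of Lrrc2 and 3.18 kb before the start of Tdgf1. Tdgf1 encodes Cripto, a co-receptor for Nodal. A second, weaker member beside it, with a fold of 6.68, lay 1.496 kb before the Tdgf1 start. Cfc1, which encodes Cryptic, the other co-receptor of this family, had a member 2.16 kb before its start with a fold of 7.31. These 2 genes were the ones with a member among 44 genes of BMP, Nodal and TGF-beta signalling (4.55%). The list does not hold every gene of these pathways, and Bmp6, which had a member, is not on it.

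Of 53 Wnt signalling genes 3 had a member (5.66%). Wnt3, a Wnt ligand of the primitive streak, and Wnt5a, a ligand of non-canonical Wnt signalling, had members inside the gene with folds of 6.16 and 5.83. The member near Wls, which encodes a carrier for Wnt secretion, was the one noted above for its high control level. Hes1, a bHLH repressor downstream of Notch, had 2 members with folds of 5.42 and 5.37, one of them with the lowest −log10 q-value of all members, 5.05. It was the 1 gene among 36 of Notch and Hedgehog signalling. Has2, the hyaluronan synthase needed for endocardial cushions, had a summit 9.14 kb inside the gene with a fold of 23.1 from 51 fragments, the 1 case among 42 genes of epithelial-mesenchymal transition and matrix.

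Several lists had no member. These were the bHLH dimer partners and Id proteins (0 of 7), FGF and MAPK signalling (0 of 38), vascular and blood progenitor genes (0 of 35), sarcomere and heart muscle genes (0 of 32), cell cycle and growth control genes (0 of 48), homeobox cluster genes (0 of 39) and cadherin, protocadherin and collagen genes (0 of 136). Lists of this size would be expected to hold few genes at the background of 1.36%, so these zeros carry little weight. They also depend on which genes the lists hold. Alpk3, Rbm20, Lin52, Lin54 and Bub1b (fold 7.99), which act in heart muscle or the cell cycle, had members and are on none of the lists. Of 24 pluripotency genes the 1 with a member was Tbx3.

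**Figure D4:**
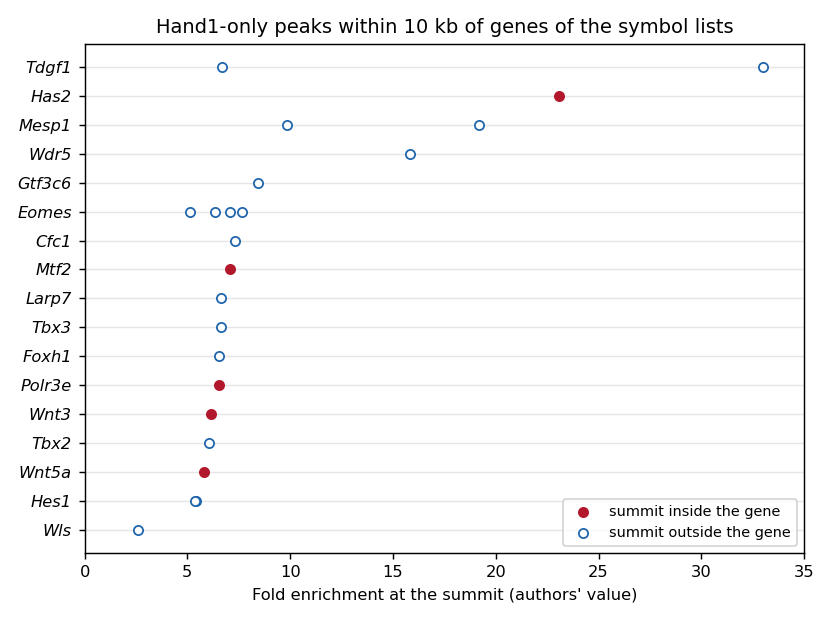
Deposited fold enrichment of member summits within 10 kb of genes of the symbol lists that are described here; filled points lie inside the gene and open points outside. The summit shared by Tdgf1 and Lrrc2 (33.0), Has2 (23.1), Mesp1 (19.2) and Wdr5 (15.8) stand to the right of the others, which lie below 10.

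Among 101 chromatin regulators 2 had a member (1.98%), and the 29 genes of the RNA polymerase III machinery had 3 (10.3%). Mtf2, an accessory subunit of the Polycomb complex PRC2, had a summit 0.078 kb inside its start with a fold of 7.05. Wdr5, a core subunit of histone H3 lysine methyltransferase complexes, had a summit 3.33 kb past its end with a fold of 15.8, and this summit lay on an snRNA gene, Gm25541. Gtf3c6, a subunit of the factor TFIIIC, had a fold of 8.43 at a summit on Rnu3a, a small RNA gene. Polr3e, a subunit of RNA polymerase III, had 6.56 at 0.963 kb inside its start, and a tRNA gene lay 1143 bp away. Larp7, which binds 7SK RNA, had 6.66 at 6.21 kb past its end.

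Small RNA genes other than tRNA genes lay within 500 bp of 29 members (10.1%). Of these, 18 were near snRNA genes, 4 near miRNA genes, 3 near 5S rRNA genes, 2 near snoRNA genes, 1 at Rmrp and 1 at Rny1. The median fold was 6.26. Such peaks were not particular to the members. Leaving them out kept 257 of the 286 members, 61 of the 69 Foxf1-overlapping Hand1 peaks and 3355 of the 3374 Foxf1 peaks without a Hand1 peak. The summit on Rmrp, the RNA of ribonuclease MRP, had 13.5 and lay 0.385 kb before Ccdc107. The summit on the snRNA gene Gm24019 had 10.9 and lay 0.308 kb before Med16, a Mediator subunit. The member assigned to Zmat2, with a fold of 22.8, lay at Vaultrc5, a vault RNA gene that the table types as a long non-coding RNA, and is not among the 29. The 3 members assigned to Gas8 lay on 5S rRNA genes, with folds of 13.04, 8.43 and 4.3. The 3 assigned to Rdm1 lay at the snRNA genes Gm24950 and Gm23971, with folds of 8.23, 5.13 and 5.84.

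The let-7i hairpin held a summit, with a fold of 5.47 and 14 fragments, at position 122985719 of chromosome 10, 6.34 kb from an end of Mon2. The mature miRNA of the 5' arm is shown because the summit fell on its first base, with the seed, bases 2 to 8, in capitals.
let-7i-5p: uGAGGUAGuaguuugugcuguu
The Mir1894 hairpin lay within 11 bp, 166 bp and 310 bp of the 3 members assigned to Ppp1r10, a regulatory subunit of protein phosphatase 1, with folds of 5.81, 5.47 and 7.40.

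Among lists built on symbol patterns, the share of genes with a member was at most 3.45% apart from the histones. A member lay within 10 kb of 3 of 87 ribosomal protein genes (3.45%), namely Rpl35a (fold 5.37), Rpsa (6.16) and Rpl27a (6.92). Translation factors had 2 of 77, Eef1a1 (6.68) and Eif4a2 (6.603), and aminoacyl-tRNA synthetases had 1 of 39, Hars2 (22.8), whose member was assigned to Zmat2. Splicing genes had 2 of 117, Srsf6 (6.16) and Ddx5 (5.47). Zinc finger genes had 5 of 466 (1.07%), with the highest fold at Zfp608, 6.68. Olfactory and vomeronasal receptor genes had 5 of 1474 (0.339%), where the highest fold was 10.6 at Vmn2r126. Solute carriers had 3 of 389 (0.771%), led by Slc25a51 (7.37), and ubiquitin ligase genes had 2 of 378 (0.529%), led by Rnf144a (7.47).

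**Figure D5:**
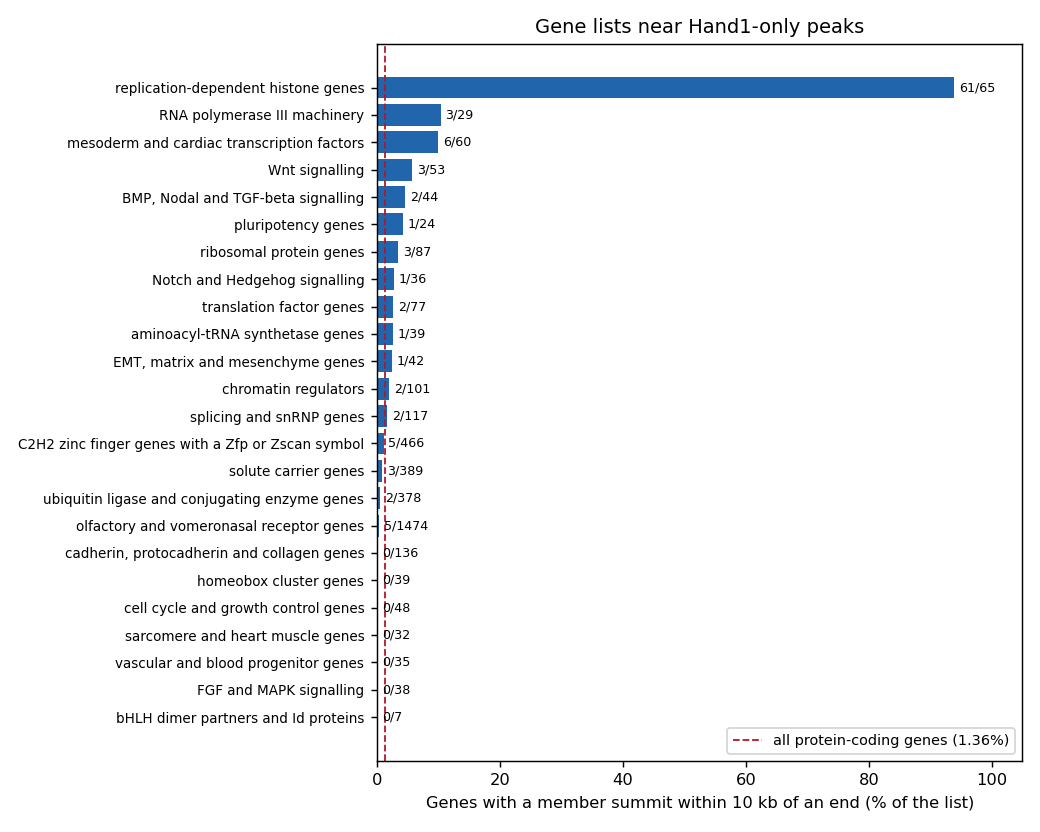
Share of the genes (%) of each list described here that have a member summit within 10 kb of an end, with the number of genes beside each bar; the dashed line is the share of all protein-coding genes, 1.36%. The histone list (61 of 65) stands apart, and many histone genes lie within 10 kb of a member of a neighbouring gene.

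Several of the strongest members were assigned to genes on no list. Of the 15 highest folds 4 were at histone genes. The others, besides Lrrc2, Has2 and Mesp1, were BC035044 (26.3), Btbd16 (26.2), Coa7 (24.1), a cytochrome c oxidase assembly factor, and Ntsr2 (23.97), a neurotensin receptor. They also included Crb2 (23.5), a Crumbs polarity protein needed during gastrulation, Zmat2 (22.8), Tra2a (20.5), a regulator of splicing, and Efl1 (18.3), a GTPase of ribosome maturation. The summits of these 8 members held between 53 and 127 fragments. They lay between 2.07 kb and 9.25 kb from the gene end, and 5 of them (BC035044, Btbd16, Coa7, Ntsr2 and Tra2a) lay past the end of the gene.

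Summits close to gene ends gave a further set of genes. Beyond the histone, small RNA and listed genes, the highest folds within 1 kb were 17.1 at Cibar2, 12.0 at Ppp1r14d, 11.1 at Sh2d5, 9.88 at Tchp, 7.99 at Crybg2 and 7.55 at Atf2, a stress-response transcription factor. Of developmental genes named here after their values were seen, Cyp26a1, which breaks down retinoic acid, had a fold of 7.55 inside its end. Bmp6, a BMP ligand, had 6.66 at 5.49 kb, and Ntn1, a secreted guidance cue, had 7.04 at 4.10 kb. Frem1, a matrix protein, had 13.3, Fosb, an AP-1 subunit, 13.04, Rbm20, a regulator of titin splicing, 8.74, and Alpk3, a kinase of heart muscle, 8.36. Lin52, like Lin54 a subunit of MuvB, had a member 8.35 kb past its end with a fold of 6.21. Its summit held 13 fragments, the fewest of any member. The Lin54 summit had the same fold and fragment count, as did unrelated members such as those at Eapp, Omp and Asah1.

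Promoter sequences were compared as descriptions. Member intervals overlapped 77 promoter windows, 43 at 42 histone genes and 34 at 29 other genes, out of 21044 windows of the same length. A gene with several annotated starts has several windows. CCAAT was present in 83.7% of the 43 histone windows and 26.5% of the 34 others, against 38.5% of all windows. TATAAA was present in 53.5%, 14.7% and 12.7%. The E-box, CANNTG, was present in 62.8%, 55.9% and 69.04%, and in 10 of the 12 windows that held a summit. The E-box CAGCTG was in 11.6% of the histone windows and 23.5% of the others, against 15.7% of all. The E-box CATCTG was in 6.98% and 5.88%, against 14.4%. All motifs were searched on both strands, and the more specific E-boxes are part of CANNTG. The whole window was searched, also where an interval covered only part of it. Histone windows that no member overlapped were not compared, so the CCAAT and TATAAA shares cannot be called particular to the overlapped ones. The median GC content was 45.3% in the histone windows, 57.5% in the others and 56.7% over all windows.

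Near the limits of the selection, the members farthest from a gene end were those of Rbm20 (9.98 kb, fold 8.74), Olfr871 (9.85 kb, 8.38) and Zfp608 (9.72 kb, 6.68). The nearest peaks left out were those of Olfr273 (10.02 kb, fold 6.56), Ctdsp2 (10.2 kb, 9.47) and Tnni1 (10.3 kb, 5.25). The members closest to a tRNA gene lay 848 bp (BC107364, fold 6.72), 907 bp (H4c8, 6.91) and 1143 bp (Polr3e) from it. The nearest peaks left out by the tRNA limit lay 16 bp (Tmpo, fold 9.30), 8 bp and 7 bp (both Fcgr3, 11.1 and 14.4) from a tRNA gene.

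Although no member interval overlapped a Foxf1 interval, Foxf1 summits were often not far. A Foxf1 summit lay within 10 kb of 86 members (30.1%). Of the 219 assigned genes 69 (31.5%) had a Foxf1 summit within 10 kb of an end, against 20.2% of all protein-coding genes. The share was 36.5% for the 52 assigned histone genes and 29.9% for the other 167. Among the 60 mesoderm and cardiac transcription factors, Foxf1 summits lay within 10 kb of 26.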

How the data were processed

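The deposited lists of 1 Hand1-HA library (stage MES) and of Foxf1-HA (stage CP, 2 libraries labelled) were used. Per the submitters' processing notes, the tools were Trim Galore 0.6.6, Bowtie2 2.3.4.3, SAMtools 1.9, deepTools 3.5.0 and MACS2 2.2.7.1, with build mm10. Whether the Foxf1 list was pooled, the control used and the treatment of reads with several positions are not given in the sources used here. Each line holds the authors' fold enrichment, a linear ratio over background, and, as deposited, the summit's significance as −log10 p-value and as −log10 q-value. The deposited score was not used. The lowest −log10 q-value was 5.01 for Hand1 and 10.0 for Foxf1.

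Library depth is not in the lists. Fragments at the summit (k) and control level (λ) were solved from fold = (k + 1)/(λ + 1) and the p-value, read as the Poisson chance of a count above k at mean λ. Intervals and p-values cover counting error only. The solved k was whole within 0.05 for 100% of Hand1 peaks.

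Each member was assigned the protein-coding gene with the nearest end in the RefSeq table of GRCm38.p6, the assembly that mm10 denotes. Strand came from the RefSeq promoter table, which covers 79.9% of protein-coding genes, and 232 of the 286 members had a gene with known strand. Coordinates are 1-based. Fisher's exact tests were two-sided and adjusted over 4 tests (SciPy 1.17.1), and the solver and the member rule were tested on simulated data. No sequence outside promoter windows and mature miRNAs was used.

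Members and gene lists were chosen with earlier results of these data known. The genes named with values are the 15 highest folds, genes of the symbol lists, up to 8 per pattern list, genes with 3 or more members, up to 12 within 1 kb of an end, those at the limits, and those the text says were chosen afterwards; some that fall under this rule are not reported here. Alternatives changed the distance limit (5 kb, 50 kb), the q-value limit, the overlap rule, the unit counted (1 peak per interval or per gene) and left out high control levels, small RNA genes or, added after seeing the data, genes of the histone list.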

Additional observations from a re-analysis of the deposited data

How the results depend on the processing

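Most of the 127 alternative values (96) were counted as unchanged. For a tested result this meant the same direction and side of the threshold, whatever the size. Among untested values, the number of members was counted as unchanged at 192 (without genes of the histone list), against 286. With ends within 5 kb or 50 kb, 61.6% or 29.4% of members lay within 1 kb of an end. With 50 kb there were 487 members at 378 genes and 57 genes of the symbol lists, and requiring −log10 q ≥ 10 in each list gave 144 members at 116 genes and 9 listed genes, a median fold of 9.13 and 61.1% within 1 kb. Without genes of the histone list, called without histone genes below, the median fold was 6.56 and 27.6% lay within 1 kb. With 1 peak per interval 41.7% lay within 1 kb, and 44 of 218 members were at histone genes, against 52 of 219 with 1 peak per gene.

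The odds ratio for lying within 1 kb, against Foxf1-overlapping Hand1 peaks, was 1.68 (5 kb), 1.85 (1 peak per interval), 1.65 (gap up to 1 kb counted as overlap), 1.65 (without high control levels), 1.83 (1 peak per gene) and 1.35 (without histone genes), with adjusted p from 0.119 to 0.666, none past the threshold. Against Foxf1 peaks it was, again by Fisher's exact test, 1.41 (5 kb, adjusted p = 0.0645), 1.36 (gap up to 1 kb, 0.0615) and 1.08 (1 peak per gene, 0.779). The larger values were 4.19 and 2.17 with −log10 q ≥ 10 in each list, and 3.2 against Foxf1-overlapping peaks when at least 50% of the peak had to overlap. Against Foxf1 peaks the ratio turned below 1 with 50 kb (0.999), 1 peak per interval (0.998) and no histone genes (0.526, now past the threshold). For lying inside a gene, the odds ratio against Foxf1 peaks passed with 50 kb (0.764) and without histone genes (0.664), and that against Foxf1-overlapping peaks with 50 kb (1.83) and without high control levels (2.54). The cause of these changes was not tested.

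The share of histone summits past the gene start stayed between 97.6% and 98.9% in every alternative run. No paired analysis was possible because each factor had a single list. The weakest members rest on 13 fragments, and with 1 list no value could be checked in a replicate.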
